A study of Homo sapiens with 6 samples.

Results

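The genes described here are 43 pattern recognition receptors, their adaptor proteins and kinases, and parts of the inflammasome, in a human monocytic cell line with and without overexpressed PTX4. They were taken from a list of gene symbols, and each symbol was matched to the deposited tables by its Ensembl gene identifier. All 43 were found among 78651 genes, and 40 of them had enough counts to be tested between the groups.

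The cells were THP-1, a line derived from the blood of a patient with acute monocytic leukaemia and widely used as a stand-in for monocytes. By stable transduction they carried either an empty vector (EV, n = 3 libraries) or a construct for PTX4, a secreted protein of the pentraxin family of soluble recognition molecules (PTX4-OE, n = 3 libraries). Both groups were kept in the same serum-containing medium, and no stimulus or differentiating agent is named for either. The labels call the replicates biological and place all 6 libraries in batch 1. They do not say whether each group was a clone or a pool of transduced cells, or which promoter drove the construct. RNA with poly(A) tails was sequenced, and the comparison asked which transcripts differ when PTX4 is overexpressed.

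Pattern recognition receptors detect molecules that microbes or damaged cells release. Toll-like receptors (TLRs) sit at the cell surface or in endosomes and signal through adaptors that carry a TIR domain, chiefly MYD88 and TICAM1, to the IRAK kinases and the TRAF ubiquitin ligases. NOD1 and NOD2 sense peptidoglycan fragments in the cytosol, and other proteins of the NLR family assemble inflammasomes, in which the adaptor ASC (gene PYCARD) activates caspase-1 so that interleukin-18 is matured and the pore protein gasdermin D is cleaved. Cytosolic DNA and RNA are sensed through cGAS with STING and through MAVS, which act by way of the kinase TBK1 and the IRF transcription factors. Monocytes are known for their response to bacterial lipopolysaccharide, which TLR4 recognises together with CD14 and LY96.

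Depth ranged from 29670641 to 37718207 expected counts per library. The targeted gene PTX4 (ENSG00000251692.8) had 0, 3 and 4 counts with EV and 24633, 14398 and 15782 with PTX4-OE, so every library matched its label. The monocytic label matched the defining myeloid genes: CD33 stood at 36.1 to 40.4 TPM (transcript abundance scaled for gene length and library depth) and SPI1 at 253 to 287 TPM over the 6 libraries. CD3E, CD3D and CD2 of T cells, MS4A1 of B cells, HBB, EPCAM, COL1A2 and DCN had 0 counts in every library. All 8 monocytic markers listed were at 2.34 TPM or more, and NKG7, listed for T and NK cells, stood at 18.9 to 27.1 TPM. The mitochondrial share of counts was 2.79% for PTX4-OE replicate 1, below the 4.75% to 5.91% of the other libraries. Its part in the results below was not tested.

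The 43 genes ranged from 0.012 TPM for TLR10 to 193 TPM for STING1 on average, and most of the signalling chain was expressed while most TLRs were low or silent. Positions are given on GRCh38 from GENCODE 44. Mean TPM over the 6 libraries was at least 1 for 33 genes, at least 10 for 19 and at least 100 for 2, STING1 and PYCARD. Another 8 genes were low, with a mean under 1 TPM: TREM1, TLR5, TLR6, TLR8, TLR3, TLR7, NLRP1 and TLR1. The rule used here for silence was a deposited TPM under 0.1 in all 6 libraries. By it TLR10 was the one silent receptor of the 43 genes, and CASP5, which encodes an inflammatory caspase, was the other silent gene. Of all genes measured, 63.9% met that rule, and 18.7% had a mean of at least 1 TPM. With a limit of 0.5 TPM, 8 genes would be silent, the 2 above with TLR1, TLR3, TLR6, TLR7, TLR8 and NLRP1. Of the 10 TLRs, only TLR2, TLR4 and TLR9 had a mean of at least 1 TPM.

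**Figure D1:**
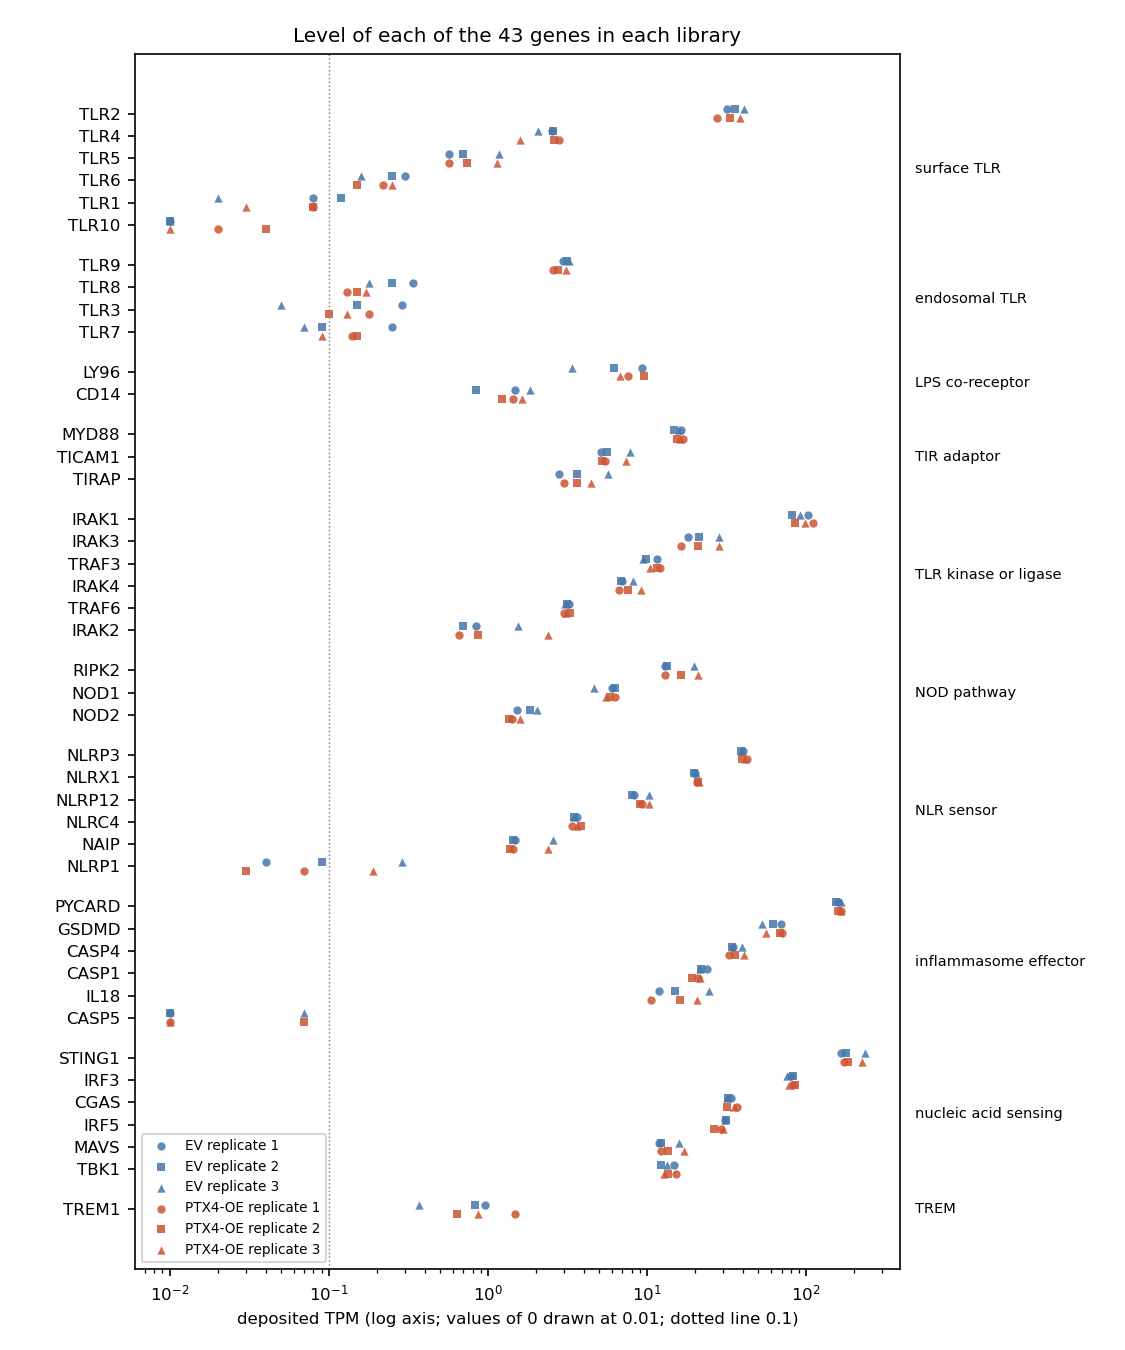
Deposited TPM (log axis) of each of the 43 genes in each of the 6 libraries, grouped by role and ordered by mean level within a role. Values of 0 are drawn at 0.01, where the value of 0.01 for TLR10 in PTX4-OE replicate 3 also lies, and the dotted line is the limit of 0.1 TPM used for silence. EV and PTX4-OE points lie close together for most genes, and TLR10 and CASP5 are the only genes with every point left of the line.

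At the cell surface TLR2, the receptor for bacterial lipoproteins (ENSG00000137462.10, chromosome 4, 153684070 to 153706260, plus strand), was by far the most abundant TLR, at 31.6, 35.9 and 40.6 TPM with EV and 27.5, 33.0 and 38.5 TPM with PTX4-OE. The ranges of the groups overlapped, and in both groups replicate 1 was the lowest library. TLR10, whose ligand is still debated (ENSG00000174123.11, chromosome 4, 38772238 to 38782990, minus strand), had 0, 0 and 0 counts with EV and 2, 2 and 1 with PTX4-OE. Every one of these is at or under 3 counts, the number taken as the limit that a count of 0 allows, which corresponds to 0.0795 to 0.101 CPM (counts scaled for library size alone) in these libraries, so no fold change is given. TLR1 and TLR6, which pair with TLR2 to recognise different lipoproteins, stood at 0.02 to 0.12 TPM (5 to 18 counts) and 0.15 to 0.30 TPM (22 to 48 counts). TLR1 lies just outside the rule for silence, through 0.12 TPM in EV replicate 2. TLR1, TLR6 and TLR10 are neighbours on chromosome 4, and the annotated spans of TLR1 and TLR6 overlap on the same strand, although the counts of neither had fractions. TLR4 stood at 1.58 to 2.78 TPM and the flagellin receptor TLR5 at 0.57 to 1.17 TPM.

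Of the endosomal receptors, TLR9, which detects unmethylated CpG DNA (ENSG00000239732.4, chromosome 3, 52221080 to 52225645, minus strand), was the one with more than 1 TPM, at 2.97, 3.12 and 3.23 TPM with EV and 2.58, 2.74 and 3.11 TPM with PTX4-OE. Its range over the libraries overlapped that of TLR4, so the order of these 2 receptors below TLR2 is not separated. TLR7, a sensor of single-stranded RNA (ENSG00000196664.5, chromosome X, 12867072 to 12890361, plus strand), stood at 0.25, 0.09 and 0.07 TPM with EV and 0.14, 0.15 and 0.09 TPM with PTX4-OE, from 8 to 30 counts. TLR8, which senses related RNA ligands, stood at 0.13 to 0.34 TPM and TLR3, the receptor for double-stranded RNA, at 0.05 to 0.29 TPM. The mean of TLR7 was the lowest of the 4, but the ranges of TLR3, TLR7 and TLR8 overlapped, so their order is not separated. TLR8 overlaps an annotated antisense gene, and the sources used here do not say whether the libraries mark the strand.

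The lipopolysaccharide co-receptors were present at modest levels. LY96, which encodes the MD-2 protein that binds lipopolysaccharide within the TLR4 complex (ENSG00000154589.7), stood at 9.33, 6.19 and 3.35 TPM with EV and 7.57, 9.62 and 6.71 TPM with PTX4-OE. That level rests on only 24 to 62 counts per library, and EV replicate 3 was the lowest. CD14, the surface protein that hands lipopolysaccharide to the complex (ENSG00000170458.15), stood at 1.47, 0.84 and 1.83 TPM with EV and 1.43, 1.22 and 1.63 TPM with PTX4-OE, with EV replicate 2 the lowest and 23 to 55 counts. TREM1, a receptor that amplifies TLR signals (ENSG00000124731.14), stood at 0.96, 0.83 and 0.37 TPM with EV and 1.48, 0.64 and 0.87 TPM with PTX4-OE, and the groups overlapped for all 3 genes.

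The TIR adaptors, kinases and ligases on the list all had a mean of at least 1 TPM. Outside it, the TIR-domain proteins TICAM2 and SARM1 were low, with means of 0.242 and 0.29 TPM. MYD88, the adaptor of most TLRs (ENSG00000172936.18, chromosome 3, 38138552 to 38143024, plus strand), varied little, at 16.2, 14.8 and 15.9 TPM with EV and 16.9, 15.3 and 16.1 TPM with PTX4-OE. TIRAP, which brings MYD88 to the membrane (ENSG00000150455.15, chromosome 11, 126282497 to 126298845, plus strand), was the lowest of the TIR adaptors on the list. It stood at 2.81, 3.63 and 5.71 TPM with EV and 3.01, 3.62 and 4.42 TPM with PTX4-OE. In both groups its replicate 3 was the highest library. IRAK1, a kinase that MYD88 recruits (ENSG00000184216.15), was the most abundant of the listed kinases and ligases at 102, 81.2 and 92.1 TPM with EV and 110, 84.8 and 98.4 TPM with PTX4-OE. IRAK2 (ENSG00000134070.5), a related kinase, was the least abundant at 0.84, 0.70 and 1.55 TPM with EV and 0.66, 0.87 and 2.40 TPM with PTX4-OE, and again replicate 3 stood highest in both groups. Between them lay IRAK3, a brake on TLR signalling, at 16.4 to 28.5 TPM, TRAF3 at 9.47 to 12.1 TPM, IRAK4 at 6.67 to 9.20 TPM and TRAF6 at 2.99 to 3.27 TPM.

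In the NOD pathway the kinase RIPK2, on which both NOD receptors signal (ENSG00000104312.8), was the most abundant, at 13.0, 13.3 and 19.8 TPM with EV and 13.0, 16.3 and 20.9 TPM with PTX4-OE. NOD2 (ENSG00000167207.15, chromosome 16, 50693588 to 50733077, plus strand) was the least abundant, at 1.53, 1.85 and 2.03 TPM with EV and 1.41, 1.35 and 1.58 TPM with PTX4-OE. NOD1 (ENSG00000106100.11) lay between them, at 6.0, 6.28 and 4.64 TPM with EV and 6.25, 5.83 and 5.55 TPM with PTX4-OE, and its lowest library was EV replicate 3.

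NLRP3, the sensor of the best known inflammasome (ENSG00000162711.19, chromosome 1, 247416156 to 247449108, plus strand), was the most abundant NLR and one of the steadiest genes, at 39.9, 38.8 and 39.4 TPM with EV and 42.4, 39.3 and 41.3 TPM with PTX4-OE. The other steady NLR was NLRX1, a mitochondrial member of the family, at 19.9 to 21.2 TPM. NAIP, which detects flagellin and secretion system proteins (ENSG00000249437.8), stood at 1.47, 1.43 and 2.57 TPM with EV and 1.43, 1.37 and 2.40 TPM with PTX4-OE. NLRC4, with which NAIP assembles an inflammasome (ENSG00000091106.19), stood at 3.61, 3.46 and 3.46 TPM with EV and 3.35, 3.84 and 3.63 TPM with PTX4-OE. For NAIP replicate 3 was the highest library in both groups, while the 6 values of NLRC4 lay within a narrow band. NLRP12 was found at 8.04 to 10.3 TPM. The lowest NLR on the list was NLRP1 (ENSG00000091592.17), which forms an inflammasome of its own. It stood at 0.04, 0.09 and 0.29 TPM with EV and 0.07, 0.03 and 0.19 TPM with PTX4-OE, with 3 to 36 counts per library. Outside the list, NLRP7 and NLRP9 had 0 counts in every library and NLRP2 had 0 to 2.

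PYCARD (ENSG00000103490.14, chromosome 16, 31201486 to 31203450, minus strand), whose protein ASC links sensors to caspase-1, was the most abundant of the inflammasome effectors, at 158, 154 and 167 TPM with EV and 165, 159 and 166 TPM with PTX4-OE. All 6 libraries lay close together. GSDMD was found at 53.0 to 70.1 TPM, CASP4, which senses intracellular lipopolysaccharide, at 32.6 to 40.4 TPM, CASP1 at 19.2 to 23.9 TPM and IL18 at 10.5 to 24.5 TPM. CASP5 (ENSG00000137757.11, chromosome 11, 104994235 to 105023168, minus strand) had 1 count in EV replicate 3, 1 count in PTX4-OE replicate 2 and 0 in the other 4 libraries. Its gene lies between CASP4 and CASP1 on chromosome 11, and both of these neighbours had at least 19.2 TPM in every library.

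Among the genes of nucleic acid sensing, STING1 (ENSG00000184584.14, chromosome 5, 139475533 to 139482935, minus strand), the adaptor that cGAS activates, was the most abundant of all 43 genes, at 166, 177 and 235 TPM with EV and 172, 184 and 223 TPM with PTX4-OE. Replicate 3 was the highest library in both groups, and the groups overlapped. IRF3, the interferon-inducing transcription factor (ENSG00000126456.16), stood at 80.4, 82.2 and 76.3 TPM with EV and 83.0, 85.0 and 77.5 TPM with PTX4-OE. The kinase that phosphorylates IRF3, TBK1 (ENSG00000183735.11), stood at 14.7, 12.2 and 13.3 TPM with EV and 15.3, 13.5 and 12.8 TPM with PTX4-OE. Its mean was the lowest of the listed genes of this group. Its range overlapped that of MAVS, at 11.8 to 17.1 TPM, so the order of these 2 is not separated. CGAS was found at 31.6 to 36.7 TPM and IRF5 at 26.5 to 31.2 TPM.

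In 8 of the genes the counts had fractions in at least 1 library, which can arise where reads are divided between genes: TLR9, MYD88, TIRAP, NOD1, NLRC4, NAIP, PYCARD and IRF3. NAIP has near-identical partial copies beside it on chromosome 5, and IRF3, PYCARD and TIRAP overlap other annotated genes (BCL2L12, PYCARD-AS1 and TIRAP-AS1). TLR9, NOD1 and NLRC4 each overlap an annotated gene that had an identifier but no symbol here. The values of the 8 genes are uncertain to the extent that this division was.

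Promoter windows are shown for the abundant TLR2 and the scarce TLR8, for NLRP3 and PYCARD of the inflammasome, and for the neighbours CASP4 and CASP5, of which the first is expressed and the second silent. The windows come from RefSeq (GRCh38.p14), run from 250 bases before the transcription start to 50 after it, and are written 5′ to 3′ on the gene's strand. Capitals mark each CpG dinucleotide, of which there are 33 in TLR2, 6 in TLR8, 5 in NLRP3, 23 in PYCARD, 3 in CASP4 and 0 in CASP5.
TLR2 (chr4:153684030-153684329, plus strand): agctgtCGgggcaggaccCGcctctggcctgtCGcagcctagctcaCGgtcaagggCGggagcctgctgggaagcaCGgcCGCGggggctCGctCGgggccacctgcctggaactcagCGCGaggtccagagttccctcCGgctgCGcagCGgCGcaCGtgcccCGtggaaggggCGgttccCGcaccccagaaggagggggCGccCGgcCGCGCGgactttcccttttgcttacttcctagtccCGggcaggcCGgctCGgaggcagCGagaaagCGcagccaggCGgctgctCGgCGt
TLR8 (chrX:12906370-12906669, plus strand): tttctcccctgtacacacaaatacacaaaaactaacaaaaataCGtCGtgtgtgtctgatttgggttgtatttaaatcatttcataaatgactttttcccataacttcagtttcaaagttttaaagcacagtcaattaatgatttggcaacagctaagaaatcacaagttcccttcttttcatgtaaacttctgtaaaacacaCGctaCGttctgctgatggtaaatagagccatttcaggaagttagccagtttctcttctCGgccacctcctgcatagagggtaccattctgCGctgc
NLRP3 (chr1:247415923-247416222, plus strand): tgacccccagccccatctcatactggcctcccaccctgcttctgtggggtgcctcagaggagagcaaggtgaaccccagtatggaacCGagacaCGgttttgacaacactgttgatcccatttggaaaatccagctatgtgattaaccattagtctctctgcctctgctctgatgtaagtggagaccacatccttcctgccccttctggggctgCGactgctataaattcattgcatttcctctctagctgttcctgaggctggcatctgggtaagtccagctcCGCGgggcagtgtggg
PYCARD (chr16:31202711-31203010, minus strand): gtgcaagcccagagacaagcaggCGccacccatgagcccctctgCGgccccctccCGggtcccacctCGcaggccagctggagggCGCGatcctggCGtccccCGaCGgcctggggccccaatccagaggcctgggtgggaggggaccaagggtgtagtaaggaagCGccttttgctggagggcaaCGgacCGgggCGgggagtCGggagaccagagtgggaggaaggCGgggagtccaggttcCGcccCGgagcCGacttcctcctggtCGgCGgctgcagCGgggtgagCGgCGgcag
CASP4 (chr11:104968525-104968824, minus strand): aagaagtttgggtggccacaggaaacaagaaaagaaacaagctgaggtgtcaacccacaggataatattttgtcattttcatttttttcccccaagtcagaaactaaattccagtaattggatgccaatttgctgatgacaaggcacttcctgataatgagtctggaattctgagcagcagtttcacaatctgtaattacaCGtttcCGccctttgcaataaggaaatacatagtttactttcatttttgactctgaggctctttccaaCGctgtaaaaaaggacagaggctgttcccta
CASP5 (chr11:105023119-105023418, minus strand): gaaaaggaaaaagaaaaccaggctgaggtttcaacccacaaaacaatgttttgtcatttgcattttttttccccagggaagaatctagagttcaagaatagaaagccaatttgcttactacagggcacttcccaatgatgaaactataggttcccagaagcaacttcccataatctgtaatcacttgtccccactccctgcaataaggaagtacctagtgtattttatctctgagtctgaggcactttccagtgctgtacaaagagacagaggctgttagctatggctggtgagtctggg

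A window was held for 29 of the 43 genes, and 26 of these had a single one and were compared. The measure was the ratio of observed to expected CpG, where a window of 0.6 or more was called CpG-rich, a limit chosen after the levels were known. Of 14 genes with a CpG-rich window, 13 had a mean of at least 1 TPM (92.9%), and their median was 12.2 TPM. Of 12 genes with a CpG-poor window, 7 reached 1 TPM (58.3%), with a median of 1.88 TPM. Over all genes with a single window the shares were 71.6% of 8836 and 15.7% of 5856, so the higher share in CpG-rich windows was found over all genes too. PYCARD lay at the limit itself, and TLR6 and TLR8 lay just below it at 0.56. NLRP3, CASP4 and NLRX1 had at least 19.9 TPM in every library with CpG-poor windows, while TLR5 was under 1 TPM on average with a CpG-rich one. The RefSeq windows of NLRX1, CASP4, PYCARD and CD14 lie wholly inside the GENCODE gene, downstream of its annotated start. For NLRX1 the window begins at 119168084 and the gene at 119166568. The windows of TLR2, TLR3 and TLR4 begin only shortly before the annotated start, at 153684030 against 153684070 for TLR2, so most of each lies downstream of it. The CpG class of these genes may therefore differ at the annotated start, which was not tested.

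Short motifs were searched on both strands of the same windows. The TATA box core TATAAA was present in 2 of 26 windows, those of NLRP3 and TLR9 (7.69%), against 10.8% of all 14692 single windows. GAGGAA, the core recognised by the myeloid factor PU.1, was present in 10 of 26 windows (38.5%), against 27.7% of all. The 10 were NLRP3, PYCARD, MYD88, CD14, TLR4, TRAF3, NLRP12, TLR9, TLR6 and TREM1. The last 2 had a mean under 1 TPM. A match shows only that these letters occur in the window.

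**Figure D2:**
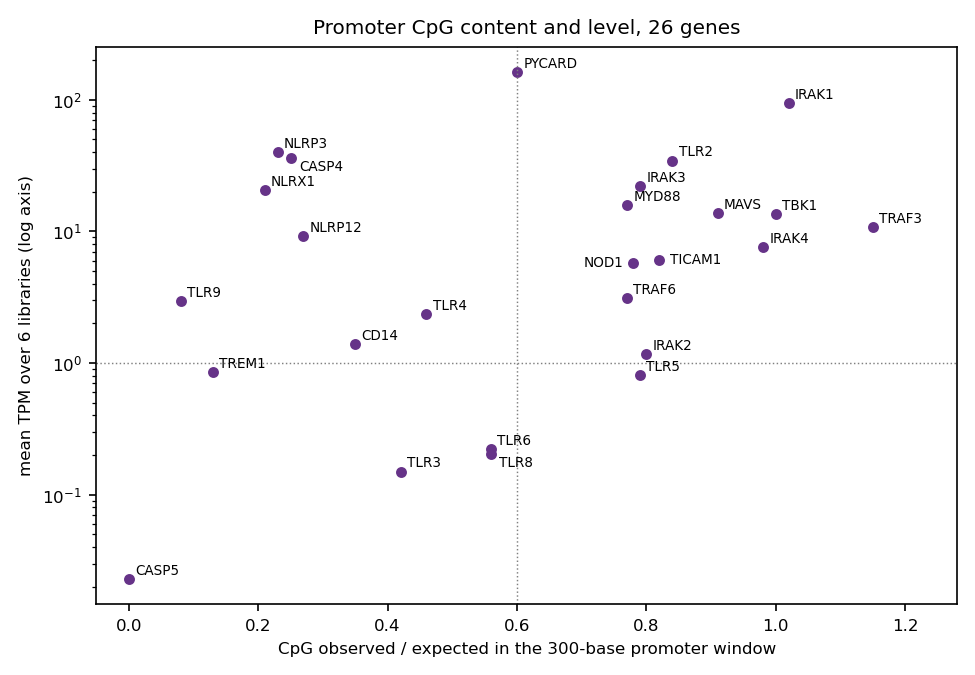
Ratio of observed to expected CpG in the 300-base promoter window (x axis) against mean deposited TPM over 6 libraries (y axis, log scale) for the 26 genes with a single window, each point a gene. The dotted lines mark a ratio of 0.6 and 1 TPM, and CASP5 lies at the lower left with no CpG while NLRP3 and CASP4 lie high with few.

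Between PTX4-OE and EV none of the 40 tested genes passed the test, and most of the differences were small. With edgeR's quasi-likelihood test over 17625 genes and no block, 0 of 40 were called higher and 0 lower at a Benjamini-Hochberg adjusted p under 0.05, against 0.00567% of all genes called higher (1 gene, PTX4) and 0.0% lower. The adjusted p was 0.9999 for each of the 40, and 0 of 40 had an unadjusted p under 0.05, against 0.743% of all genes. Libraries of the same replicate number deviated together across the groups, clearly for numbers 1 and 3 and weakly for number 2, so a second fit took the replicate number as a block. The biological coefficient of variation was 0.217 in the first fit and 0.0551 in the second, so the lack of calls in the first bears little on these genes. It called 0 of 40 genes as well, against 0.0284% of all genes higher and 0.238% lower. At an unadjusted p under 0.05 that fit held 4 of the 40 genes lower (10.0%) and 0 higher, where the shares of all genes were 4.43% lower, 4.36% higher and 8.79% in either direction. In RNA from whole cultures, a smaller share of cells with a transcript and less of it per cell cannot be told apart.

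Over the 40 genes the median log2 fold change was 0.0108 without blocks and 0.0092 with them, beside 0.0077 and 0.0053 over all genes, and 19 of the 40 were negative in each fit. With blocks the values ran from -0.81 for TLR8 to 0.49 for TLR3, both rare transcripts. Over the 21 fits TLR8 ran from -1.15 to -0.13 and TLR3 from -0.16 to 1.40, and with blocks TLR3 was at 1.16 without replicate 1 and at 0.029 without replicate 3. The median size of the change, regardless of sign, was 0.072 on the log2 scale against 0.079 over all genes. The 95% confidence interval lay within 2-fold in both directions for 32 of 40 genes without blocks (80.0%, against 75.5% of all genes). In the blocked fit this held for 37 (92.5%, against 86.2% of all genes). The 8 genes beyond 2-fold without blocks were LY96, IRAK2, TREM1, NLRP1, TLR3, TLR6, TLR7 and TLR8. The interval lay within 0.5 on the log2 scale for 21 of the 40 without blocks (52.5%, against 43.6% of all genes). With blocks it did for 30 (75.0%, against 67.6%). With blocks the intervals of TLR3, TLR8 and NLRP1, the rarest of the tested genes along with TLR7, reached past 2-fold.

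**Figure D3:**
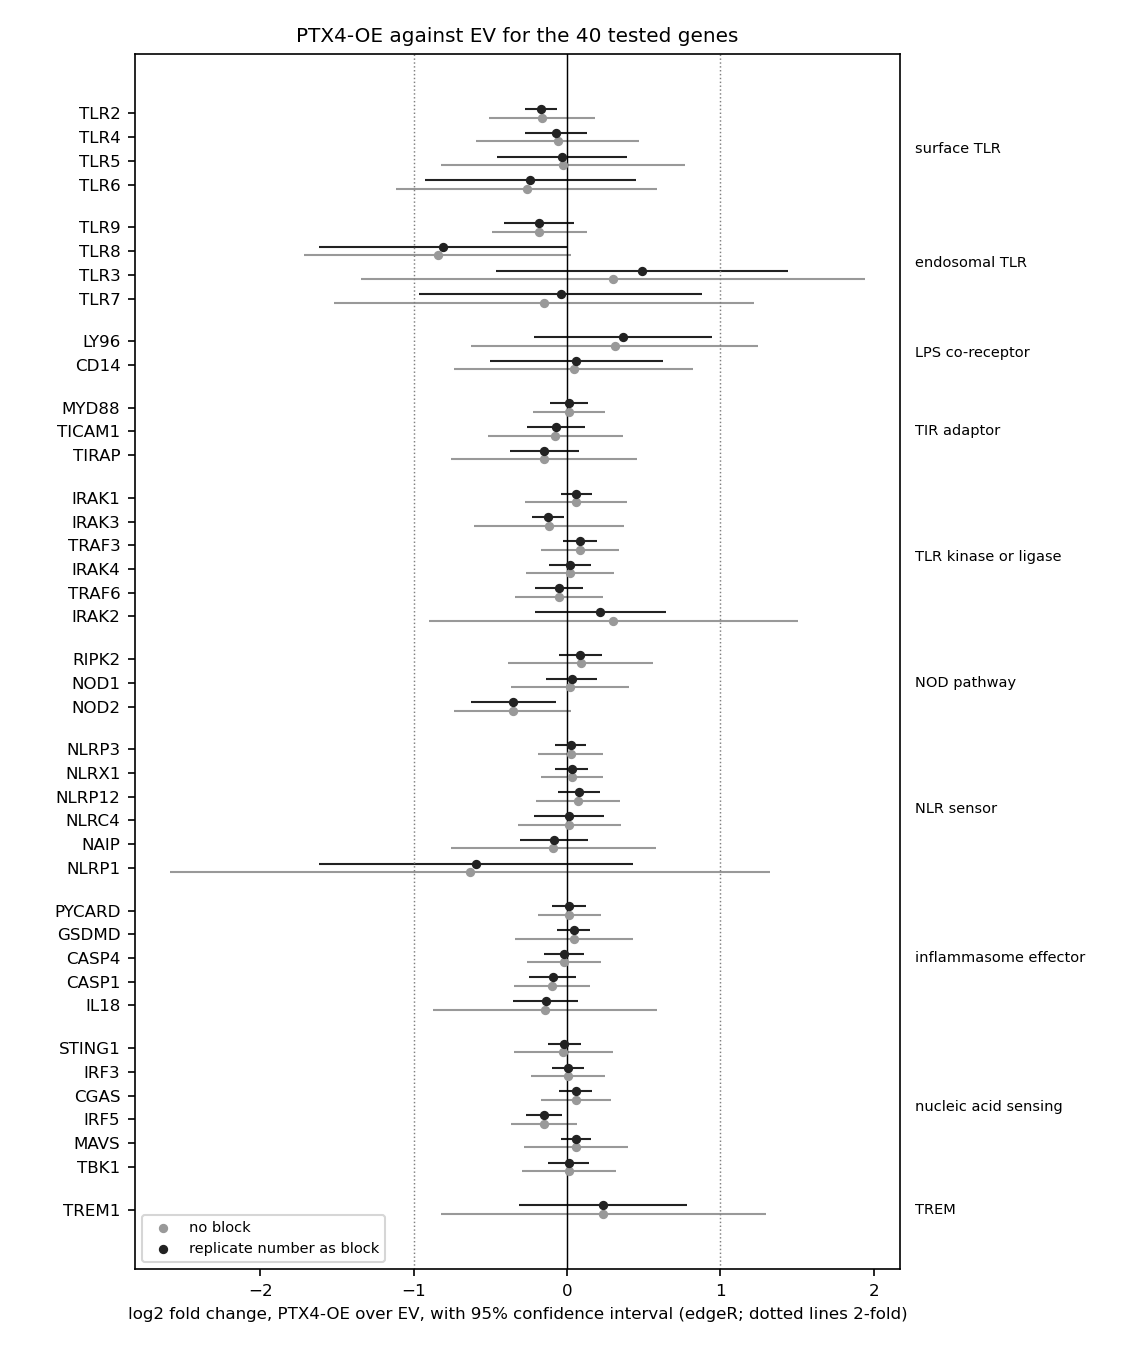
Log2 fold change of PTX4-OE over EV (x axis) with its 95% confidence interval for the 40 tested genes, from edgeR without a block (grey) and with replicate number as a block (black), grouped by role. The dotted lines mark 2-fold, and the intervals of TLR2, NOD2, IRAK3 and IRF5 with blocks lie left of 0 while no gene passed the adjusted test.

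The 4 genes with an unadjusted p under 0.05 were TLR2, NOD2, IRF5 and IRAK3, all lower with PTX4-OE and all only with blocks. In normalised CPM TLR2 stood at 76.5, 88.4 and 95.3 CPM with EV and 64.7, 79.0 and 88.6 CPM with PTX4-OE. Each PTX4-OE library was below the EV library of its number, although the groups overlapped. The log2 fold change was -0.16 (SE 0.15) without blocks and -0.17 (SE 0.050, adjusted p = 0.255) with them, and the interval with blocks was -0.27 to -0.063. Its differences in pairs 1, 2 and 3 were -0.24, -0.16 and -0.11. The smallest adjusted p of any of the 40 genes in any of 21 fits was also that of TLR2, 0.0901 with blocks and without replicate 3, at a log2 fold change of -0.21 (SE 0.067).

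NOD2 had the largest difference of the 4, at 5.00, 6.10 and 6.26 CPM with EV and 4.54, 4.30 and 4.74 CPM with PTX4-OE, and on this scale the groups did not overlap. Its log2 fold change was -0.35 (SE 0.16) without blocks and -0.35 (SE 0.13, adjusted p = 0.411) with them, with an interval of -0.63 to -0.073 and pair differences of -0.14, -0.50 and -0.40. IRF5, a transcription factor that TLR signals activate (ENSG00000128604.21, chromosome 7, 128937457 to 128950038, plus strand), stood at 62.3, 64.1 and 59.4 CPM with EV and 58.2, 53.2 and 56.2 CPM with PTX4-OE, again with no overlap. Its log2 fold change was -0.15 (SE 0.091) without blocks and -0.15 (SE 0.055, adjusted p = 0.410) with them, and the pair differences were -0.10, -0.27 and -0.082. IRAK3 (ENSG00000090376.11, chromosome 12, 66189195 to 66254622, plus strand) stood at 111, 137 and 163 CPM with EV and 97.0, 126 and 157 CPM with PTX4-OE, where the replicate numbers were much further apart than the groups. Its log2 fold change was -0.12 (SE 0.21) without blocks and -0.12 (SE 0.049, adjusted p = 0.457) with them, with pair differences of -0.20, -0.12 and -0.058. The 21 fits are edgeR with and without blocks, other normalizations and tests, and libraries left out in turn. Over them the log2 fold change ran from -0.28 to -0.042 for TLR2, -0.46 to -0.19 for NOD2, -0.20 to -0.087 for IRF5 and -0.31 to 0.052 for IRAK3, which was negative in 19 of the 21.

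**Figure D4:**
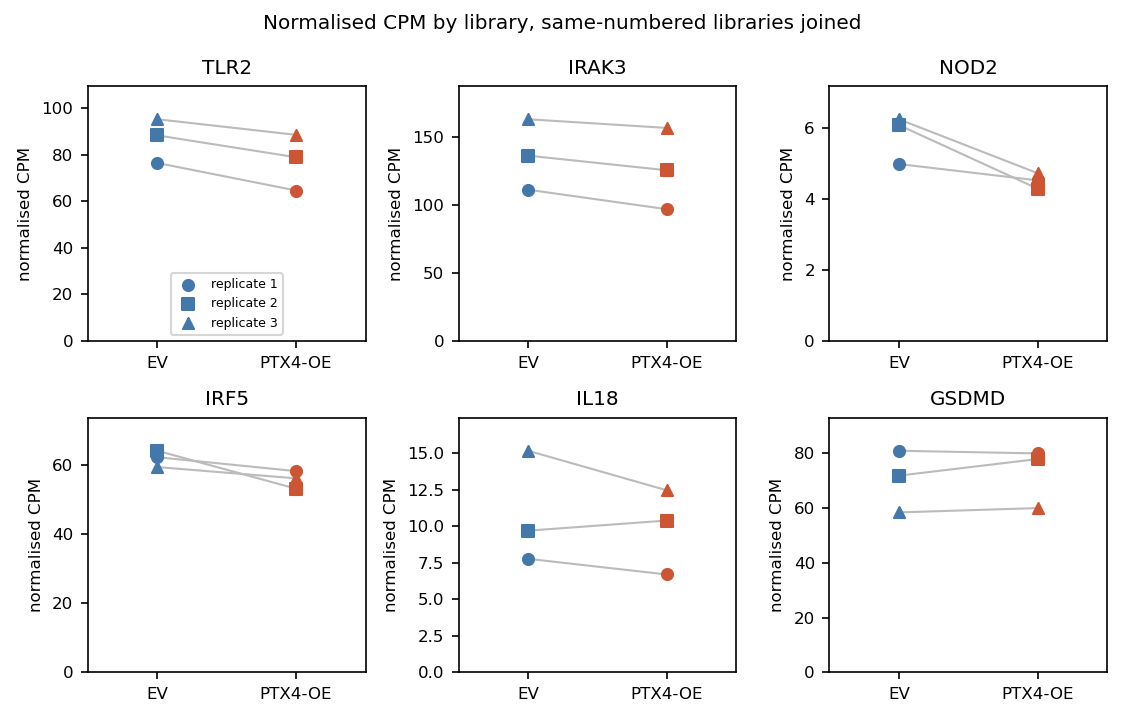
Normalised CPM (y axis, from 0) of TLR2, IRAK3, NOD2, IRF5, IL18 and GSDMD in EV and PTX4-OE libraries, with libraries of the same replicate number joined by a line. The lines of TLR2, IRAK3, NOD2 and IRF5 all slope down by small amounts, and for TLR2, IRAK3, IL18 and GSDMD the replicate numbers are spread more widely than the groups.

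In normalised CPM the groups did not overlap for 4 genes, all lower with PTX4-OE, namely NOD2, IRF5, TLR8 and TLR9 (10.0% of the 40), while 2.05% of all genes did not overlap in that direction. In CPM no gene of the 40 was separated in the higher direction, against 2.08% of all. In deposited TPM only IRF5 and TLR8 of these 4 stayed separated, NOD2 and TLR9 overlapped, and NLRX1 was separated in the higher direction. The share of all genes separated in TPM was not counted, so the separations in TPM have no background beside them. TLR8 stood at 1.08, 0.784 and 0.532 CPM with EV and 0.390, 0.449 and 0.487 CPM with PTX4-OE, which is 14 to 34 counts. Its log2 fold change was -0.84 (SE 0.37) without blocks and -0.81 (SE 0.38, adjusted p = 0.576) with them, with an interval of -1.62 to 0.0072. TLR9 stood at 7.27, 7.73 and 7.47 CPM with EV and 6.23, 6.58 and 7.02 CPM with PTX4-OE, with a log2 fold change of -0.18 (SE 0.13) without blocks and -0.18 (SE 0.11, adjusted p = 0.674) with them. In all 3 pairs 9 genes were lower with PTX4-OE (22.5%, against 14.2% of all genes): TLR2, TLR8, TLR9, NOD2, NAIP, TIRAP, IRAK3, TRAF6 and IRF5. In all 3 pairs 4 were higher (10.0%, against 16.4%): NLRX1, IRAK1, TRAF3 and MAVS. None of these 13 genes passed the adjusted test.

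By role, the 4 tested surface TLRs were all negative with blocks, from -0.24 for TLR6 to -0.032 for TLR5, around a median of -0.12 on the log2 scale. Of all genes 48.1% were negative in that fit. Only TLR2 was lower in every pair. The pair differences were 0.13, -0.12 and -0.24 for TLR4, -0.15, 0.10 and -0.045 for TLR5, and -0.46, -0.82 and 0.58 for TLR6. Of the 4 endosomal TLRs 3 were negative, with a median of -0.11. The 2 lipopolysaccharide co-receptors were positive: LY96 had a log2 fold change of 0.31 (SE 0.40) without blocks and 0.36 (SE 0.27, adjusted p = 0.763) with them, and CD14 one of 0.043 (SE 0.33) without blocks and 0.062 (SE 0.26, adjusted p = 0.973) with them. The pair differences of LY96 were -0.25, 0.60 and 0.80, so its pairs did not share a direction. TREM1 was at 0.24 (SE 0.45) without blocks and 0.24 (SE 0.26, adjusted p = 0.851) with them. TLR7, whose libraries overlapped widely, was at -0.15 (SE 0.58) without blocks and -0.041 (SE 0.43, adjusted p = 0.988) with them.

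Of the 3 listed TIR adaptors, MYD88 had a log2 fold change of 0.014 (SE 0.10) without blocks and 0.013 (SE 0.059, adjusted p = 0.974) with them. TIRAP was at -0.15 (SE 0.26) without blocks and -0.15 (SE 0.11, adjusted p = 0.752) with them, and TICAM1, the adaptor of TLR3 and TLR4, at -0.071 (SE 0.089, adjusted p = 0.879) with blocks. Among the kinases and ligases 2 of 6 were negative, IRAK3 and TRAF6, and the median with blocks was 0.040. IRAK1 was at 0.062 (SE 0.14) without blocks and 0.060 (SE 0.048, adjusted p = 0.784) with them. IRAK2 was at 0.30 (SE 0.51) without blocks and 0.22 (SE 0.20, adjusted p = 0.821) with them, with pair differences of -0.36, 0.27 and 0.58 that went both ways. In the NOD pathway RIPK2 was at 0.090 (SE 0.20) without blocks and 0.089 (SE 0.067, adjusted p = 0.764) with them and NOD1 at 0.018 (SE 0.16) without blocks and 0.031 (SE 0.078, adjusted p = 0.952) with them.

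The NLR sensors had a median log2 fold change of 0.018 with blocks, and 2 of the 6 were negative, NLRP1 and NAIP. NLRP3 was at 0.024 (SE 0.090) without blocks and 0.024 (SE 0.047, adjusted p = 0.932) with them, and its interval with blocks, -0.076 to 0.12, was among the narrowest. NLRC4 was at 0.015 (SE 0.14) without blocks and 0.013 (SE 0.11, adjusted p = 0.983) with them and NAIP at -0.090 (SE 0.28) without blocks and -0.086 (SE 0.10, adjusted p = 0.871) with them. NLRP1, with its 3 to 36 counts, was at -0.63 (SE 0.83) without blocks and -0.59 (SE 0.48, adjusted p = 0.788) with them. NLRX1 differed with the unit: its deposited TPM did not overlap between the groups, at 19.9 to 20.2 with EV and 20.7 to 21.2 with PTX4-OE, while its normalised CPM did, and its log2 fold change was 0.032 (SE 0.051, adjusted p = 0.916) with blocks.

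For the inflammasome effectors the median was -0.019, and 3 of 5 tested genes were negative, CASP1, CASP4 and IL18. PYCARD was at 0.015 (SE 0.087) without blocks and 0.014 (SE 0.052, adjusted p = 0.968) with them, with an interval of -0.10 to 0.13 with blocks. CASP1, the protease at the centre of the inflammasome, was at -0.094 (SE 0.071, adjusted p = 0.766) with blocks, and GSDMD, the pore protein, at 0.045 (SE 0.050, adjusted p = 0.855). For nucleic acid sensing the median was 0.0090, with STING1 at -0.023 (SE 0.14) without blocks and -0.018 (SE 0.050, adjusted p = 0.959) with them. IRF3 was at 0.0080 (SE 0.10) without blocks and 0.0071 (SE 0.048, adjusted p = 0.980) with them and TBK1 at 0.015 (SE 0.13) without blocks and 0.011 (SE 0.062, adjusted p = 0.977) with them. CGAS, the DNA sensor itself, was at 0.057 (SE 0.051, adjusted p = 0.808) with blocks.

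Libraries of replicates 3 and 1 differed in similar ways in both groups, and those of replicate 2 less clearly so. Between replicates 3 and 1, 37 of the 40 genes differed in the same direction with EV and with PTX4-OE, as did 84.1% of all genes. For replicates 2 and 1 this held for 27 of the 40 (67.5%, against 73.7% of all genes), and for replicates 3 and 2 for 29 (72.5%, against 77.2%). In both groups 8 genes were higher in replicate 3 than in replicate 1 by over 0.5 on the log2 scale (20.0%, against 16.8% of all genes): IL18, IRAK2, IRAK3, NAIP, NLRP1, RIPK2, TIRAP and TLR5. TLR3, TLR7 and TREM1 were lower by over 0.5 in both (7.5%, against 10.6%). Fewer genes set replicate 2 apart: by the same measure 0 genes were higher and 1, TLR3, was lower than in replicate 1 (0.0% and 2.5%, against 6.33% and 0.942% of all genes). In replicate 3 against replicate 2, NAIP, NLRP1 and IRAK2 were higher and LY96 was lower (7.5% and 2.5%, against 6.95% and 4.02%). IL18, the cytokine that caspase-1 matures, stood at 11.9, 15.0 and 24.5 TPM with EV and 10.5, 16.1 and 20.7 TPM with PTX4-OE. GSDMD went the other way, at 69.9, 61.5 and 53.0 TPM with EV and 70.1, 68.2 and 56.1 TPM with PTX4-OE. In each group replicate 3 of IL18 was the highest library and replicate 3 of GSDMD the lowest. The log2 difference between the highest and lowest library had a median of 0.50 over the 40 genes and of 0.61 over all genes. The labels leave unsaid what libraries of one number have in common.

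**Figure D5:**
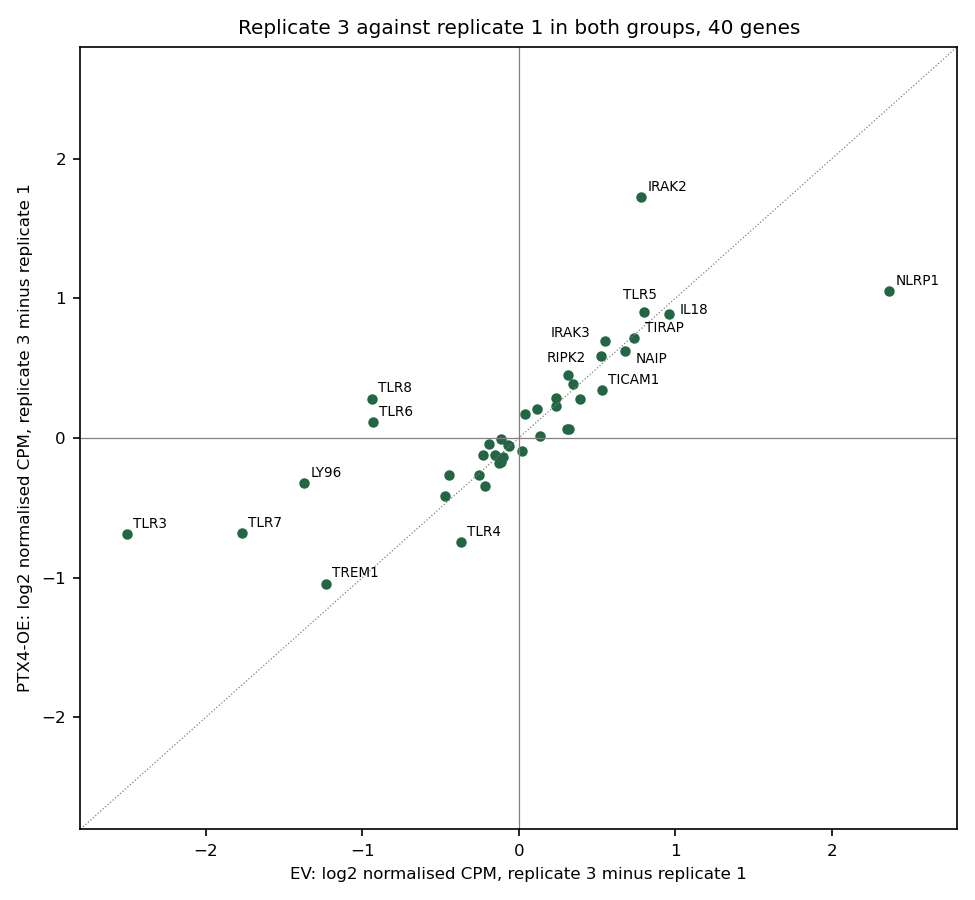
Log2 difference in normalised CPM between replicates 3 and 1 for the 40 tested genes, in EV (x axis) and in PTX4-OE (y axis), with the dotted line of equal differences. Of the 40 points 37 lie at the upper right or the lower left of the origin, with IRAK2 and NLRP1 at the upper right and TLR3 and TLR7 at the lower left.

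Other genes of the same pathways were taken from a list of 70, which held TLR chaperones and brakes, the TAK1 and IKK kinase complexes, RNA and DNA sensors, further NLR and inflammasome parts, C-type lectin signalling and TREM partners. Of these 57 were tested, and 0 were called higher and 0 lower in either fit, against 0.00567% and 0.0% of all genes without blocks and 0.0284% and 0.238% with them. With blocks 30 of the 57 were negative and the median was -0.0054. At an unadjusted p under 0.05 that fit held 2 higher (3.51%, against 4.36% of all genes) and 4 lower (7.02%, against 4.43%). The 11 tested genes of the TAK1 and IKK complexes had a median of 0.033 and the 11 RNA and DNA sensors one of -0.031, of which 8 were negative. The 13 TLR chaperones, co-receptors and brakes had a median of -0.0060.

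With blocks the smallest unadjusted p among the higher genes of that list belonged to IRF7, GSDME and MEFV. IRF7, the interferon-inducing factor downstream of TLR7 and TLR9, stood at 49.5, 35.4 and 28.2 CPM with EV and 47.1, 41.1 and 42.0 CPM with PTX4-OE, and its log2 fold change with blocks was 0.23 (SE 0.087, adjusted p = 0.415). It was the one gene of the list called in any fit, with blocks and without replicate 1, at 0.40 (SE 0.077, adjusted p = 0.0143). In pair 1 its difference was -0.070 and in pair 3 it was 0.57. GSDME, a gasdermin cut by caspase-3, was at 0.24 (SE 0.091, adjusted p = 0.433), and MEFV, which encodes the sensor pyrin, at 0.14 (SE 0.075, adjusted p = 0.618). Among the lower genes, CD180, a TLR-like surface protein, stood at 1.11, 0.749 and 0.561 CPM with EV and 0.668, 0.417 and 0.154 CPM with PTX4-OE and had a log2 fold change of -1.04 (SE 0.38, adjusted p = 0.408). LY86, which encodes its partner MD-1, stood at 28.5, 33.2 and 29.3 CPM with EV and 28.4, 28.3 and 24.9 CPM with PTX4-OE. The groups were separated only narrowly on this scale, with a difference of -0.0026 in pair 1. In deposited TPM they overlapped, with EV replicate 1 at 62.25 and PTX4-OE replicate 1 at 62.7. In CPM 3.51% of the 57 genes were separated in the lower direction and 1.75% in the higher, against 2.05% and 2.08% of all genes. The log2 fold change of LY86 was -0.16 (SE 0.065, adjusted p = 0.503), and that of NLRC5, a regulator of MHC class I genes, was -0.12 (SE 0.057, adjusted p = 0.554).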

How the data were processed

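RNA was sequenced from 6 THP-1 libraries, 3 with EV and 3 with PTX4-OE. The authors deposited expected counts per Ensembl gene, made, per the submitters' processing notes, with FastQC 0.11.5, STAR and featureCounts on GRCh38. Of these values 7.94% are not whole, and the sources used here give neither the step behind that nor the strand setting and annotation release. The authors also deposited TPM, scaled for gene length and depth, and a table of FPKM that was not used here.

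Symbols, coordinates and overlaps came from GENCODE 44, which held 61463 of 78686 identifiers, 50581 of them in the same version. The 35 pairs of genes listed on both X and Y were summed. After rounding, expected counts went into the quasi-likelihood test of edgeR 4.0.16 under R 4.3.3 (filterByExpr, TMM), with Benjamini-Hochberg adjustment over all 17625 genes kept and a call at an adjusted p under 0.05. Normalised CPM carry the TMM factors, and pair differences are log2 values with a prior of 2 counts. Standard errors use the variances moderated by edgeR. Alternatives used DESeq2 1.42.0 and limma 3.58.1. Tables were handled in Python 3.11.15 with pandas 2.3.3 and drawn with matplotlib 3.10.9.

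Replicate numbers were taken from the labels, where nothing says what libraries of one number have in common. Over 17624 genes without PTX4, the deviations of same-numbered libraries from their group means correlated at 0.632, 0.13 and 0.699 for numbers 1, 2 and 3, each over the limit of 0.1, and those of unlike numbers at -0.643 to 0.117. The 0.117, of EV replicate 2 with PTX4-OE replicate 1, passed the limit too, so the limit does not set number 2 apart. On the strength of numbers 1 and 3, all numbers were treated as pairs in a fit with blocks, printed beside the fit without. The fits were tested on simulated counts with known changes. Where the simulation held a replicate effect shared by both groups, the fit without blocks called none of these changes and the fit with blocks most of them. The known changes were 0.5 and 1 on the log2 scale, larger than those of TLR2, NOD2, IRF5 and IRAK3. The simulated replicate effect was equally strong for all numbers, while in the data number 2 was only weakly shared. How well the fits find smaller changes was not tested.

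The genes and lists were chosen with earlier results of these data known, so they are counted and described with no test of a list. Genes were given in full where called in either fit, where an unadjusted p was under 0.05, where highest or lowest in mean TPM within a role, where silent, or where counts had fractions. Of the other pathway genes, the 3 higher and 3 lower with the smallest unadjusted p were named. The 95% intervals and the floor of 3 counts do not cover all sources of error: the floor is for counting error only.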

Additional observations from a re-analysis of the deposited data

How the results depend on the processing

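None of the 40 genes was called in any of the 20 alternatives run, with or without the replicate block. Over all genes, the fit without blocks called 1 higher and 0 lower, and the replicate block gave 5 and 42. DESeq2 with the block called 6 higher and 32 lower, and limma-voom with the block 14 and 53. Without a block, limma-voom called 0 genes higher, and 1 gene was called lower with no filter on low counts, 2 with DESeq2 and 2 on log2(TPM + 0.1). Leaving out the pair of replicate 1, 2 or 3 with the block gave 30, 8 and 41 genes higher and 58, 15 and 167 lower. For the 40 genes the median log2 fold change ran from -0.0568, without PTX4-OE replicate 3, to 0.0095 when single libraries were left out without a block, and from -0.0185 to 0.0057 when pairs were left out. That of the other pathway genes ran from -0.0457 to 0.0669 and from -0.0151 to 0.0272. It was 0.0356 on log2(TPM + 1), with and without the replicate block, and 0.0405 on log2(TPM + 0.1). One pathway gene, IRF7, was called with the block and without replicate 1. With a limit of 0.5 TPM in place of 0.1, 8 genes were silent, and 2 with a limit of 3 counts. The cause of these differences was not tested. The 11 genes whose log2 fold change kept its sign in all 21 fits were TLR2, TLR8, TLR9, NOD2, IRF5 and CASP1, negative, and LY96, NLRP12, NLRX1, TRAF3 and CGAS, positive. Depth limits TLR1, TLR3, TLR7, TLR8, TLR10, NLRP1 and CASP5 most, since each had 36 counts or fewer in every library. With 3 libraries a group, p-values measure the spread between these cultures alone.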
